A study of Mus musculus with 12 samples.

Results

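Endothelial lipase, encoded by Lipg, and the lipases and lipase inhibitor measured with it in mouse liver were examined in a model of toxic fibrosis. The gene set held 7 genes chosen by name, namely Lipg, Lipc, Lipa, Lipe, Pnpla2, Mgll and Angptl4. It was put together because Lipg was low in a single group of arrays, so all values of Lipg below are a description and carry no test. A probe set with 1 gene symbol was found for 6 of the 7 genes among 18193 genes read from the array. Lipc, which encodes hepatic lipase, had no probe set in the annotation used and was not analysed here.

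RNA came from whole livers of male Balb/c mice, obtained at an age of 8 weeks and then acclimatised and treated, and was read on 12 arrays, 3 per group. Every mouse received a lentivirus through the tail vein. Mice of the NC group received olive oil and the control virus Lenti-NC, and mice of the NC+CCl4 group received carbon tetrachloride (CCl4) and the same virus. Mice of the shLFAR1 group received oil and Lenti-shLFAR1, which carries a short hairpin RNA against the long noncoding RNA lnc-LFAR1, and those of the shLFAR1+CCl4 group received CCl4 and Lenti-shLFAR1. CCl4 was given at 5% by volume in oil, 0.3 ml/kg, 3 times per week into the peritoneum. The virus followed 2 weeks after the first dose and dosing went on for 4 further weeks. No probe set carried the name of lnc-LFAR1, so the knockdown itself could not be checked on the arrays, and the lentivirus was not restricted to 1 cell type of the liver.

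Lipases cut fatty acids from lipids and work in different places. Endothelial lipase and hepatic lipase are secreted, bind to the vessel wall and act on circulating lipoproteins, endothelial lipase mainly on the phospholipids of high density lipoprotein (HDL). Lysosomal acid lipase, encoded by Lipa, breaks down cholesteryl esters and triglycerides taken up into lysosomes. In the cytosol adipose triglyceride lipase (Pnpla2), hormone-sensitive lipase (Lipe) and monoacylglycerol lipase (Mgll) act one after another on stored triglyceride. Angiopoietin-like 4 (Angptl4) is a secreted inhibitor of lipoprotein lipase and a target of the PPAR nuclear receptors.

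The deposited values are log2 levels, and each gene is given by its probe set with the highest mean over the 12 arrays. Levels of different probe sets cannot be compared, so each gene is compared only with itself across groups. Lipg had a mean log2 level of 6.14, above 56.8% of the genes measured. In the first principal component, which held 56.3% of the variance, the 6 oil arrays lay between -26.7 and -20.4 and the NC+CCl4 arrays between 34.8 and 48.8. Of the shLFAR1+CCl4 arrays replicates 1 and 2 lay at -6.80 and -9.66, whereas replicate 3 lay at 39.2, within the range of the NC+CCl4 arrays. Differences between the CCl4 groups are therefore given with this array and, in most cases, also without it. Without it 2 arrays of its group remain, and leaving it out for its likeness to the NC+CCl4 arrays tends to widen those differences. NC+CCl4 replicate 1 also stood apart, with a difference of 0.716 log2 units between the 3' and 5' Gapdh control probe sets, where the remaining arrays had -0.205 to 0.0333.

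Lipg was lower in the livers that had received both CCl4 and Lenti-shLFAR1 than in all other livers. Its log2 level was 6.38, 6.39 and 6.31 in the NC arrays and 6.71, 6.57 and 6.13 in the NC+CCl4 arrays. It was 6.58, 6.77 and 6.31 in the shLFAR1 arrays. In the shLFAR1+CCl4 arrays it was 4.98, 5.25 and 5.30. The 9 arrays of the first 3 groups lay in 1 range, and all shLFAR1+CCl4 arrays lay below it, with a gap of 0.83 log2 units between the lowest of the 9 and the highest of the 3. Replicate 3 of the shLFAR1+CCl4 group, which resembled the NC+CCl4 arrays over all genes, had a Lipg level beside those of the other shLFAR1+CCl4 arrays.

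**Figure D1:**
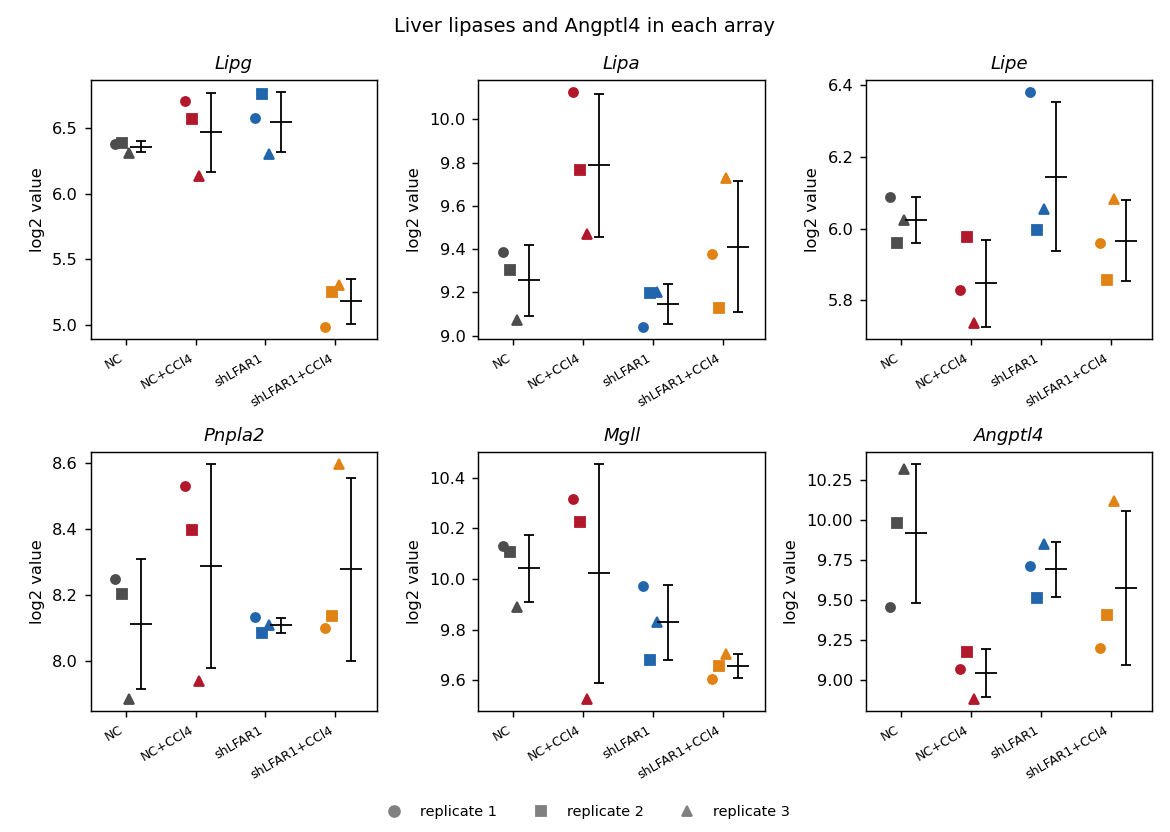
Log2 level (vertical axis, a separate scale for each gene) of the 6 measured genes in each of the 12 arrays, by group (horizontal axis). Symbols are replicates, and the bar with whiskers is the group mean ± SD (n = 3). The 3 shLFAR1+CCl4 arrays lie below all others for Lipg, and the 3 NC+CCl4 arrays lie below the NC arrays for Angptl4.

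By group mean the order was shLFAR1, with 6.55 ± 0.23 (SD, n = 3), then NC+CCl4 with 6.47 ± 0.30, then NC with 6.36 ± 0.04, and last shLFAR1+CCl4 with 5.18 ± 0.17. The neighbours among the first 3 groups differed by less than the pooled SD within groups, 0.209 log2 units. The mean of shLFAR1+CCl4 was 1.29 log2 units below that of NC+CCl4, a difference of -1.29 or 2.45-fold, and 5.11% of all genes were likewise lower without overlap. It was 2.59-fold below that of shLFAR1. Without shLFAR1+CCl4 replicate 3 the differences of Lipg were -1.36 log2 units from NC+CCl4 and -1.44 from shLFAR1. In the absence of the hairpin, CCl4 came with a Lipg difference of 0.11 log2 units, and in the absence of CCl4 the hairpin came with a difference of 0.19 log2 units. The CCl4 difference with Lenti-shLFAR1 minus that with Lenti-NC was -1.48 log2 units.

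The 3 probe sets of Lipg did not show this pattern alike. The second probe set, 1450188_s_at, had log2 levels of 3.97, 4.47 and 4.45 in the shLFAR1+CCl4 arrays against 4.87 to 5.87 in the other 9, so its groups were also apart. Its mean in shLFAR1+CCl4 differed by -0.99 log2 units from NC+CCl4 and by -1.31 from shLFAR1. The third, 1421261_at, had a mean log2 level of only 4.39, and its shLFAR1+CCl4 arrays, at 4.31, 4.31 and 4.30, lay within the range of 3.97 to 4.74 of the other arrays. Its difference between shLFAR1+CCl4 and NC+CCl4 was 0.02 log2 units. Averaging the 3 probe sets gave a difference of -0.75 log2 units in that comparison.

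**Figure D2:**
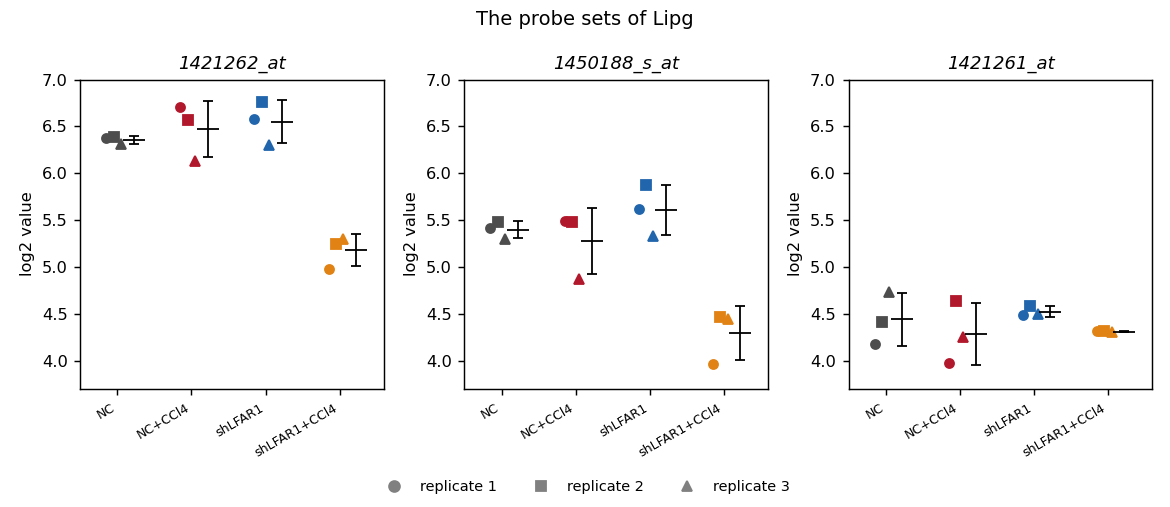
Log2 level (vertical axis, 1 scale for all panels) of the 3 Lipg probe sets in each array, by group (horizontal axis), with group mean ± SD (n = 3). In 1421262_at and 1450188_s_at the shLFAR1+CCl4 arrays lie below the other 9, and in 1421261_at, with a mean of 4.39, they lie among them.

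How common this separation was is a description, and whether it exceeded that of arrays in random order was not tested. Over all genes, 74 of 18193 (0.407%) had all 3 shLFAR1+CCl4 arrays below the other 9, and 70 had all 3 above (0.385%). Lipg had the widest gap of the 74, 0.83 log2 units, as it was chosen for this pattern. Among genes with a mean above the median of all genes, the next were Egln3, a prolyl hydroxylase that acts on hypoxia-inducible factor, with a gap of 0.238 log2 units, and Abhd6, a monoacylglycerol hydrolase, with 0.140. Akirin1 followed with 0.127, Mlf2 with 0.124 and Sac3d1 with 0.119. None of the other 5 measured genes of the set had the pattern.

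**Figure D3:**
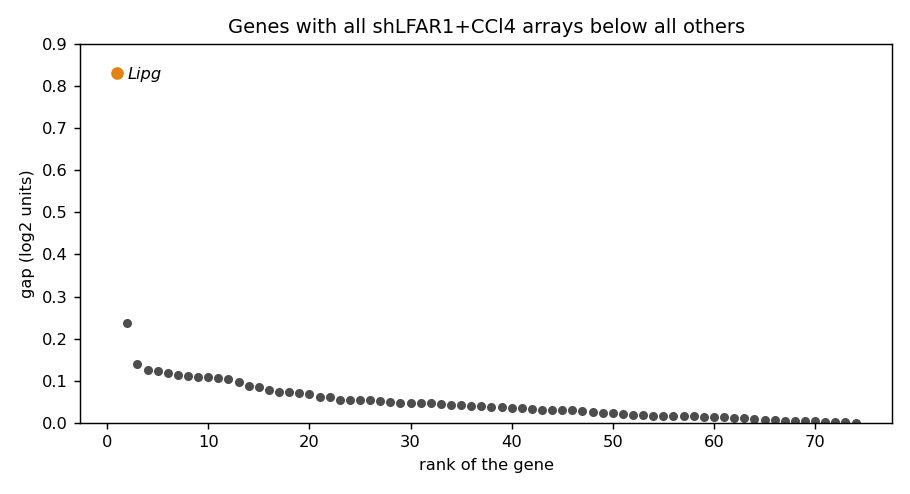
Gap in log2 units (vertical axis) between the lowest of the other 9 arrays and the highest shLFAR1+CCl4 array, for the 74 genes where it is above 0, by rank (horizontal axis). Lipg stands at 0.83 and the gene after it at 0.238.

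The level of Lipg was also set beside that of every gene above the median over the 12 arrays, which share the same 4 groups, so the coefficients mostly describe group differences. The highest Pearson coefficients were those of Hipk2, a nuclear protein kinase (r = 0.87), Tmem98 (0.867), Ykt6, a SNARE protein of vesicle fusion (0.860), Eng and Akr1a1, an aldehyde reductase (both 0.853). Eng encodes endoglin, a TGFβ co-receptor of endothelium. With the group means removed, r over the 12 arrays was 0.90 for Eng, 0.59 for Ykt6, 0.43 for Hipk2, 0.42 for Tmem98 and -0.08 for Akr1a1. These genes were picked for their r with Lipg in the same arrays, so these values are a description and no separate support. The share of all genes with such values is not given. The lowest coefficients were those of Nr3c1, the glucocorticoid receptor (-0.919), Cxcl1, a neutrophil chemokine (-0.897), and Pm20d1 (-0.881). Of the other genes of the set Mgll had r = 0.618 with Lipg, Lipe 0.176 and Lipa 0.0734, while Pnpla2 and Angptl4 had -0.0312 and -0.0196.

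In bulk liver, fewer cells of a type and less RNA per cell cannot be told apart. The mean log2 level of 12 endothelial markers was 6.60 to 6.81 in shLFAR1+CCl4 and 6.73 to 6.98 in NC+CCl4, and 6.62 to 6.80 in the oil arrays of both viruses. None of the 12 was called between the CCl4 groups in limma, where 0.291% of all genes were. Of the 12, 1 had an unadjusted p under 0.05, as did 14.2% of all genes, and the median difference was -0.20 log2 units, against 0.01 over all genes. The differences ran from -0.53 log2 units for Fcgr2b (adjusted p = 0.0946) to 0.11 for Oit3 and were below 0 for all but 3 of the 12. Fcgr2b and Cdh5 were lower without overlap, as were 5.11% of all genes. The defining genes Pecam1, Cdh5, Kdr and Stab2 differed by -0.17, -0.25, 0.05 and -0.12 log2 units, and Lyve1 and Stab1 by -0.41 and -0.31. Without shLFAR1+CCl4 replicate 3, 1 of the 12 was called (8.33%), beside 7.29% of all genes. This was Fcgr2b (-0.54 log2 units, adjusted p = 0.0417). In that fit Pecam1, Cdh5, Kdr and Stab2 differed by -0.04, -0.26, 0.18 and -0.11 log2 units, and Lyve1 and Stab1 by -0.55 and -0.44. Hepatocyte markers, at 13.3 to 13.5 in all arrays, fit the tissue label. Macrophage markers lay at 6.28 to 6.56 in NC and 7.90 to 8.60 in NC+CCl4. In shLFAR1+CCl4 replicates 1, 2 and 3 they lay at 7.08, 6.98 and 8.24. Stellate cell markers lay at 6.83 to 6.96 in NC and 8.35 to 8.43 in NC+CCl4. In shLFAR1+CCl4 replicates 1, 2 and 3 these lay at 7.28, 7.24 and 8.28, so replicate 3 alone held the upper end in both lists. The part of these cell types in the level of Lipg was not tested.

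The other 5 measured genes were tested in limma over all 18193 genes with Benjamini-Hochberg adjustment, in 5 comparisons. CCl4 with the control virus changed 1 of the 5, Angptl4, where 13.1% of all genes were called. Angptl4 had log2 levels of 9.45, 9.98 and 10.32 in NC and of 9.07, 9.18 and 8.88 in NC+CCl4. All NC+CCl4 arrays were lower than all NC arrays, as was so for 15.8% of all genes. Angptl4 fell by 0.87 ± 0.24 log2 units (SE), a 1.83-fold lower level, with a 95% interval of -1.39 to -0.36 (limma, adjusted p = 0.0300). The call was lost in 4 of 12 fits that left out 1 array: without NC replicate 2 the adjusted p was 0.0931, without NC replicate 3 it was 0.110, without NC+CCl4 replicate 1 it was 0.0601 and without NC+CCl4 replicate 3 it was 0.0929. The change was then between -0.67 and -0.89 log2 units. A second Angptl4 probe set with a mean log2 level of 2.42, near the bottom of the array, differed by 0.07.

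With the hairpin virus Angptl4 lay at 9.71, 9.51 and 9.85 in oil-treated and at 9.20, 9.41 and 10.12 in CCl4-treated livers. The latter groups overlapped, with replicate 3 of shLFAR1+CCl4 above all shLFAR1 arrays, and differed by -0.12 ± 0.24 log2 units (adjusted p = 0.919, 95% interval -0.63 to 0.40), or by -0.39 without that replicate. Against NC+CCl4 the shLFAR1+CCl4 arrays were all higher, as was so for 7.2% of all genes. The difference was 0.53 ± 0.24 log2 units and did not pass (limma, adjusted p = 0.336, 95% interval 0.02 to 1.05), and without shLFAR1+CCl4 replicate 3 it was 0.26 (adjusted p = 0.540). Its interaction of 0.76 ± 0.34 log2 units, that is the CCl4 change with Lenti-shLFAR1 minus that with Lenti-NC, did not pass either (limma, adjusted p = 0.502).

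Lipa, the lysosomal lipase, had log2 levels of 9.39, 9.30 and 9.07 in NC and of 10.13, 9.77 and 9.47 in NC+CCl4. All NC+CCl4 arrays were above all NC arrays, as was so for 13.8% of all genes. The difference of 0.53 ± 0.18 log2 units (95% interval 0.15 to 0.91) missed the threshold (limma, adjusted p = 0.0657). It passed in 2 of 12 fits that left out 1 array, without NC+CCl4 replicate 3, at 0.69 log2 units (adjusted p = 0.0287), and without shLFAR1+CCl4 replicate 3 (adjusted p = 0.0322). It was 0.36 without NC+CCl4 replicate 1, the array with the high Gapdh difference (adjusted p = 0.193). The other Lipa probe sets differed by 0.71 and 0.26 log2 units in the same comparison. Lipa lay at 9.04, 9.20 and 9.20 in shLFAR1 and at 9.38, 9.13 and 9.73 in shLFAR1+CCl4, groups that overlapped. It differed by -0.38 ± 0.18 log2 units between shLFAR1+CCl4 and NC+CCl4 (limma, adjusted p = 0.358, 95% interval -0.76 to 0.00367), and by -0.54 without shLFAR1+CCl4 replicate 3 (adjusted p = 0.0843).

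Mgll, which completes triglyceride breakdown and also degrades the endocannabinoid 2-arachidonoylglycerol, was at 10.13, 10.11 and 9.89 in NC and 10.32, 10.23 and 9.53 in NC+CCl4. It was at 9.97, 9.68 and 9.83 in shLFAR1 and 9.61, 9.66 and 9.70 in shLFAR1+CCl4. The shLFAR1+CCl4 arrays were the tightest group and lay below 2 of the 3 NC+CCl4 arrays but above the third. The difference of -0.37 ± 0.17 log2 units did not pass (limma, adjusted p = 0.359), and was -0.62 without NC+CCl4 replicate 3 (adjusted p = 0.0567) and -0.22 without NC+CCl4 replicate 1 (adjusted p = 0.640). Without shLFAR1+CCl4 replicate 3 it was -0.39 (adjusted p = 0.288). CCl4 with the control virus came with -0.02 log2 units in this probe set (95% interval -0.39 to 0.35), and with 0.21, -0.29 and 0.10 in the other 3 probe sets of Mgll.

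Pnpla2, which starts triglyceride breakdown, was at 8.25, 8.20 and 7.88 in NC and 8.53, 8.40 and 7.94 in NC+CCl4. It was at 8.13, 8.09 and 8.11 in shLFAR1 and 8.10, 8.13 and 8.60 in shLFAR1+CCl4. These groups overlapped, and the 95% intervals of the differences ran from -0.20 to 0.55 log2 units for NC+CCl4 against NC and from -0.38 to 0.36 for shLFAR1+CCl4 against NC+CCl4. Lipe, the hormone-sensitive lipase, was at 6.09, 5.96 and 6.02 in NC, 5.83, 5.98 and 5.74 in NC+CCl4, 6.38, 5.997 and 6.05 in shLFAR1, and 5.96, 5.86 and 6.08 in shLFAR1+CCl4. Its groups overlapped too, with intervals of -0.46 to 0.10 and -0.16 to 0.40 log2 units for the same comparisons. Without shLFAR1+CCl4 replicate 3 the difference between the CCl4 groups was -0.17 log2 units for Pnpla2 (adjusted p = 0.641) and 0.06 for Lipe (adjusted p = 0.874). Both genes are abundant in fat, and the mean log2 level of 5 measured adipocyte markers was 3.65 to 3.94 in all arrays. All 6 measured genes, Lipg included, were lowest in replicate 3 among the NC+CCl4 arrays, where 35.5% of all genes were lowest.

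**Figure D4:**
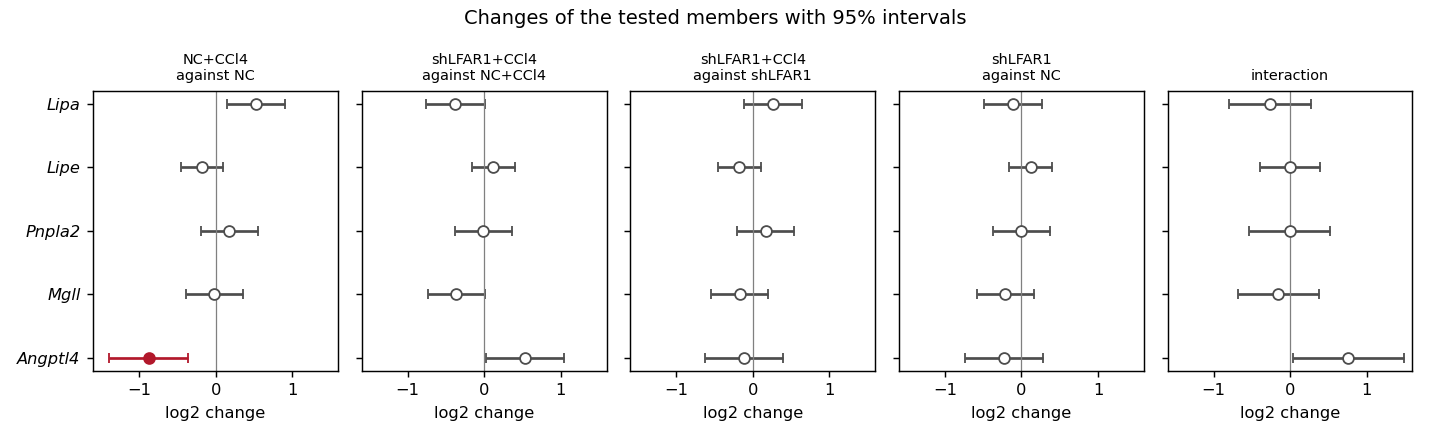
Log2 change (horizontal axis, log2 units) with 95% interval from limma for the 5 tested genes (rows) in each of the 5 comparisons (panels). The filled point, Angptl4 in NC+CCl4 against NC at -0.87, is the only one called at an adjusted p under 0.05.

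None of the 5 genes was called in the other 4 comparisons in limma. Between shLFAR1+CCl4 and NC+CCl4, where 0.291% of all genes were called, 1 of the 5 had an unadjusted p under 0.05, as did 14.2% of all genes, and 0 by the methods' t-test. Between shLFAR1+CCl4 and shLFAR1, with 0.407% of all genes called, and between shLFAR1 and NC, with 0%, the number at an unadjusted p under 0.05 was 0 of 5 by either test. In the interaction, with 0.022% of all genes called, it was 1 of 5 in limma, as for 9.51% of all genes. Comparisons that share a group share its arrays, so their values are not independent.

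The partners of these lipases were described from 6 lists of 110 genes, of which 97 were measured. CCl4 with the control virus changed 25 of the 97 (25.8%), 19 upward and 6 downward, beside 13.1% of all genes, 7.66% upward and 5.41% downward. The median change of the 97 was 0.00274 log2 units, against -0.05 over all genes. The mean levels of macrophage and stellate cell markers given above moved in the same comparison, and their part was not tested.

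Among 17 genes around lipoprotein lipase, 3 rose and 1 fell, with a list median of -0.03 log2 units. Lpl itself, which hydrolyses the triglycerides of chylomicrons and very low density lipoprotein, was at 7.27, 7.85 and 7.56 in NC and 11.06, 11.41 and 11.22 in NC+CCl4. It rose 12.7-fold, by 3.67 ± 0.39 log2 units (limma, adjusted p = 0.000295), and lay far above the oil arrays in every NC+CCl4 array. In shLFAR1 it was at 7.59, 7.85 and 7.49 and in shLFAR1+CCl4 at 9.37, 9.41 and 11.32, a rise of 2.39 ± 0.39 log2 units (limma, adjusted p = 0.0192). Replicate 3 of shLFAR1+CCl4 reached the NC+CCl4 level of Lpl, unlike replicates 1 and 2, and without it the rise was 1.75 log2 units (adjusted p = 0.000682). The call was lost when any 1 of the 3 shLFAR1 arrays was left out, with an adjusted p of up to 0.106. Apoc2, its activator, rose by 0.83 log2 units and Sdc1, a heparan sulfate proteoglycan, by 0.87. Lmf1, the factor that matures lipoprotein, hepatic and endothelial lipase in the endoplasmic reticulum, fell by 0.78 log2 units (adjusted p = 0.00921).

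Among 12 genes of HDL and remnant handling, 3 rose and none fell (list median -0.02 log2 units). Cd36, a fatty acid and lipoprotein scavenger receptor, rose 5.91-fold (adjusted p = 0.00379). Pltp, the phospholipid transfer protein, rose 3.13-fold, and Abcg1, which exports cholesterol to HDL, rose 2.99-fold. Scarb1, the HDL receptor of the hepatocyte, is named here after its values were seen, with means of 10.0 in NC, 9.84 in NC+CCl4, 9.84 in shLFAR1 and 10.0 in shLFAR1+CCl4.

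Among 14 lysosomal partners of Lipa, 6 rose and none fell, with a list median of 0.44 log2 units. The 5 with the largest change were Laptm5, a lysosomal membrane protein of leukocytes (3.20 log2 units), Atp6v0d2, a subunit of the proton pump (2.33), Psap, the precursor of the saposins (1.01), Ctsd, the protease cathepsin D (1.00), and Npc2, which binds cholesterol (0.85). Among 16 partners of cytosolic lipolysis, 4 rose and none fell, with a list median of 0.18 log2 units. They were the fatty acid carriers Fabp4 (1.57 log2 units) and Fabp5 (1.11) and the acyl-CoA synthetases Acsl4 (1.06) and Acsl5 (0.70). None of the 4 is a lipid droplet coat protein, and Pnpla2, Lipe and Mgll were not part of this list.

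Among 24 other neutral lipid hydrolases, 1 rose and 4 fell (list median -0.05 log2 units). The carboxylesterases Ces2a, Ces1e and Ces1f fell by 1.19, 1.02 and 0.97 log2 units and the phospholipase Pnpla8 fell by 0.34, while Ces1g rose by 0.76. Carboxylesterases are a family of close copies, and probe sets of 1 member can bind transcripts of another. Among 14 fasting, PPAR and lipid regulator genes beside Angptl4, 2 rose and 1 fell (list median 0.01 log2 units). Pdk4, the kinase that shuts off pyruvate dehydrogenase, rose by 2.55 log2 units and Srebf1, a regulator of lipid synthesis, by 1.25, and the receptor Ppara fell by 0.69 (adjusted p = 0.0498). Of the 24 partner genes named for this comparison, 15 kept their call in all 12 fits that left out 1 array. The call was lost in at least 1 of these fits for Ppara, Pnpla8, Fabp5, Atp6v0d2, Sdc1, Ces1e, Ctsd, Apoc2 and Psap, with an adjusted p of up to 0.158 for Ppara.

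**Figure D5:**
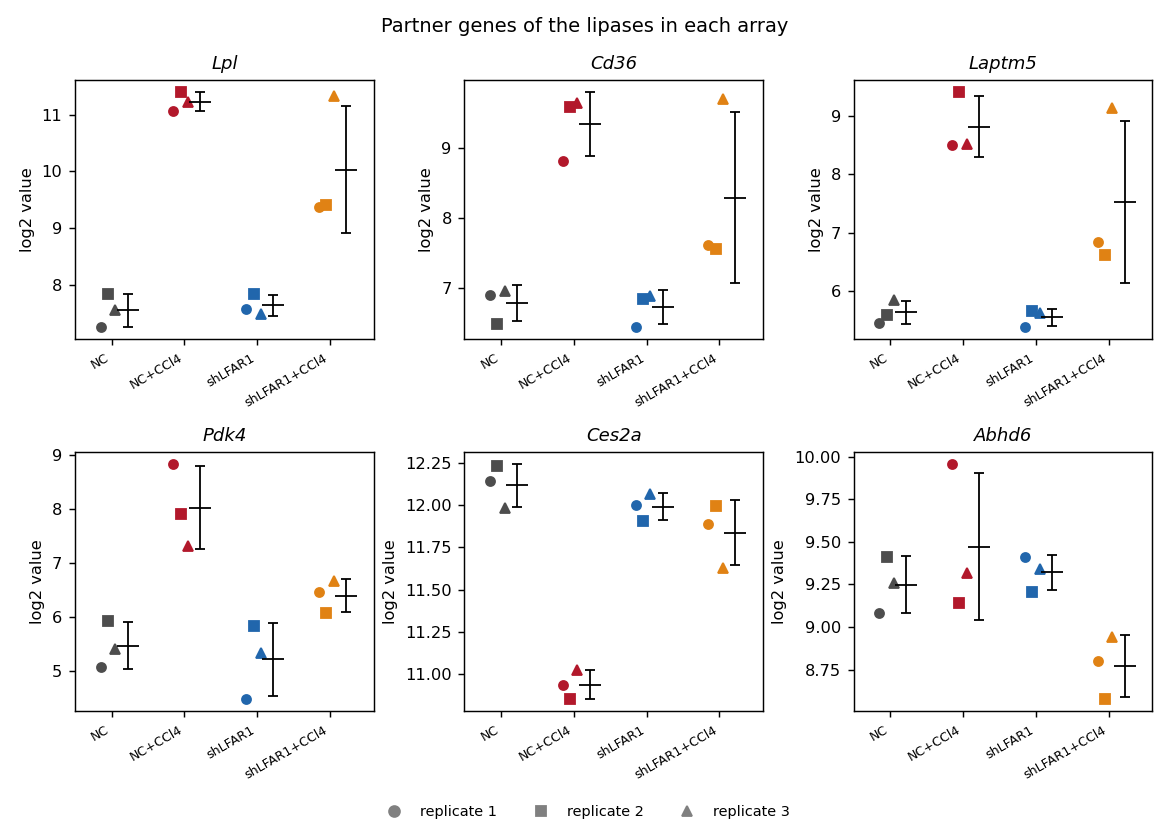
Log2 level (vertical axis, a separate scale for each gene) of 6 partner genes in each array, by group (horizontal axis), with group mean ± SD (n = 3). Replicate 3 of shLFAR1+CCl4 lies at the NC+CCl4 level for Lpl, Cd36 and Laptm5 and with its own group for Pdk4, Ces2a and Abhd6.

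Between the CCl4 groups, 1 of the 97 partner genes was called (1.03%), beside 0.291% of all genes, and 27 of the 97 had an unadjusted p under 0.05, as did 14.2% of all genes. This was Ces2a, at 10.93, 10.85 and 11.02 in NC+CCl4 and 11.89, 12.00 and 11.63 in shLFAR1+CCl4. All shLFAR1+CCl4 arrays were above all NC+CCl4 arrays, as was so for 7.2% of all genes. The shLFAR1+CCl4 arrays lay near the oil arrays, which spanned 11.91 to 12.24. Ces2a was higher by 0.90 ± 0.10 log2 units (limma, adjusted p = 0.00537), and its interaction of 1.03 ± 0.14 log2 units also passed (adjusted p = 0.0392). Without shLFAR1+CCl4 replicate 3 these were 1.01 (adjusted p = 8.03e-05) and 1.14 log2 units (adjusted p = 0.000634). With the replicate block, which pairs arrays of the same number, 2 partner genes were called, Ces2a (adjusted p = 0.0131) and Acot1, an acyl-CoA thioesterase (-1.05 log2 units, adjusted p = 0.0219, and -1.11 in the fit without replicate 3 and without the block). The block ended the call of the Ces2a interaction (adjusted p = 0.0879), which was also lost in 9 of 12 fits that left out 1 array, whereas the difference between the CCl4 groups was called in all 12.

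Abhd6 had a gap of 0.140 log2 units, against 0.83 for Lipg. It is named for that gap, so its p values below reuse the values that picked it and are a description. Abhd6 was at 9.08, 9.41 and 9.26 in NC and 9.96, 9.14 and 9.32 in NC+CCl4. It was at 9.41, 9.21 and 9.34 in shLFAR1 and 8.80, 8.58 and 8.94 in shLFAR1+CCl4. The shLFAR1+CCl4 arrays were below all others, but the difference of -0.70 ± 0.18 log2 units from NC+CCl4 did not pass (limma, adjusted p = 0.111). It passed without shLFAR1+CCl4 replicate 3, at -0.78 log2 units (adjusted p = 0.0339), and without NC+CCl4 replicate 2, at -0.87 (adjusted p = 0.0264). Pdk4 was at 8.84, 7.92 and 7.32 in NC+CCl4 and 6.47, 6.07 and 6.67 in shLFAR1+CCl4. It was lower without overlap, as were 5.11% of all genes. The Pdk4 difference of -1.63 ± 0.39 log2 units did not pass either (limma, adjusted p = 0.0954). It passed without shLFAR1+CCl4 replicate 3, at -1.76 log2 units (adjusted p = 0.0291).

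Without shLFAR1+CCl4 replicate 3 the number of partner genes called between the CCl4 groups was 24 of 97 (24.7%), 3 higher and 21 lower, beside 7.29% of all genes. With that array kept, 0.291% of all genes were called. The array was set apart for its likeness to the NC+CCl4 arrays, so calls made without it are no independent support for a difference. The partner genes that were lower without it included 6 of 14 lysosomal partners, 4 of 14 fasting, PPAR and lipid regulator genes, and 3 of 12 genes of HDL and remnant handling. Lpl was then lower by 1.84 log2 units in shLFAR1+CCl4 (adjusted p = 8.49e-05), and with the array kept its difference was -1.20 (adjusted p = 0.188). Of the 5 tested genes of the set, 0 were called in this comparison without the array as well. In the interaction the partner count rose from 1 to 15 of 97 without it (15.5%, beside 3.2% of all genes).

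In oil-treated livers, none of the 97 partner genes was called between the viruses in limma, with 3 at an unadjusted p under 0.05, beside 2.77% of all genes. By the methods' t-test it was 7 of the 97. No share of all genes is given for that test, so this count is no result about the partners. With Lenti-shLFAR1 CCl4 changed 1 of the 97, Lpl, beside 0.407% of all genes, and 18 had an unadjusted p under 0.05, as did 10.8% of all genes.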

How the data were processed

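Liver RNA was read on 12 Affymetrix mouse expression arrays, 3 for each of 4 groups, with groups and replicate numbers from the labels, which call the replicates biological. As deposited, values are log2 levels that the authors had summarised and normalised, with a method not given in the sources used here. The array medians lay between 4.42 and 4.50. No detection calls came with them, so low values can reflect background and understate fold changes. The number of arrays limits the precision.

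A platform annotation gave 1 gene symbol to 34945 of 45101 probe sets, and each gene was given by its probe set with the highest mean. Probe sets without a symbol there were not used. Tests were run in limma 3.58.1 under R 4.3.3 (lmFit on 4 group means, eBayes with intensity trend, 8 residual degrees of freedom, two-sided, Benjamini-Hochberg over 18193 genes) and called at an adjusted p under 0.05. Errors are standard errors and 95% intervals of this model. The script was tested on simulated data. The genes, lists and comparisons were chosen with earlier results of these data known, so Lipg has no test and no p was adjusted over a list alone.

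Genes were named if they were among the 7, if they were called partner genes (at most the 5 largest changes per list), or if they had the highest 5 or lowest 3 coefficients with Lipg or the widest 5 gaps among genes above the median level. What is called the methods' t-test here compared 2 groups with equal variances. The authors name a t-test for 2-group comparisons in general but no test for these arrays. For the arrays they give only a threshold, a fold above 1.6 with a p under 0.05, which was taken as unadjusted. Deviations from the group means of same-numbered NC+CCl4 and shLFAR1+CCl4 arrays correlated at 0.126, 0.229 and 0.192 across genes. For NC and NC+CCl4 these values were 0.15, -0.133 and 0.0662, and for NC and shLFAR1 they were 0.0412, -0.0495 and -0.135. The labels give no pairing by number, and the main fit used none. The replicate block, an alternative chosen from the data alone, fitted an effect of the replicate number across all 4 groups. Alternatives covered the probe set rule, normalisation, filters, variance model, array weights, the replicate block and each array left out. Figures were drawn in Python 3.11.15.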

Additional observations from a re-analysis of the deposited data

Results flagged for a closer look

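The CCl4 response of Ces2a, a carboxylesterase that hydrolyses neutral lipids, differed between the viruses. With Lenti-NC its log2 level fell by 1.19 after CCl4, with Lenti-shLFAR1 the change was -0.15, and the interaction was 1.03 log2 units (limma, adjusted p = 0.0392). The level after CCl4 was higher in 3 of 3 shLFAR1+CCl4 arrays than in all NC+CCl4 arrays, as was so for 7.2% of all genes. The interaction was still called in 3 of 12 fits that left out 1 array and not in the other 9, with adjusted p between 0.000634 and 0.207.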

How the results depend on the processing

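The lower level of Lipg in shLFAR1+CCl4 kept its direction in every alternative run. Lipg was picked for this level, so leaving out 1 array could not reverse it. With the mean of all 3 probe sets the difference shrank to -0.75 log2 units against NC+CCl4, -0.97 against shLFAR1 and -0.91 in the interaction. In probe set 1421261_at alone, not among these runs, shLFAR1+CCl4 differed from NC+CCl4 by 0.02 log2 units. The 74 genes with all shLFAR1+CCl4 arrays below the rest became 78 to 381 when 1 array was left out, the most without shLFAR1+CCl4 replicate 2. For NC+CCl4 against NC the count of called genes among the 5 tested, 1 (Angptl4, a lipase inhibitor), was 0 with the mean of all probe sets. It was 2 after quantile normalization (Lipa added), 0 by the methods' t-test with Benjamini-Hochberg and 0 to 2 leaving out 1 array. The 25 called partner genes became 7 by that t-test. Between the CCl4 groups the 1 partner gene became 2 with robust eBayes, 15 with array weights, 2 with the replicate block, 0 with a fit of only those groups, 14 at the fold threshold with the limma p, 0 by the t-test with Benjamini-Hochberg, 3 by the t-test at the fold threshold, and 1 to 24 leaving out 1 array (24 without shLFAR1+CCl4 replicate 3). For shLFAR1+CCl4 against shLFAR1 the 1 partner gene became 0, 5, 0, 8, 0 and 4 with robust eBayes, array weights, the 2-group fit, the fold threshold and the t-test with Benjamini-Hochberg or the fold threshold, and 0 to 2 leaving out 1 array. For shLFAR1 against NC the count of 0 became 2 at the fold threshold and 1 by the t-test there. In the interaction the 1 partner gene became 0 without intensity trend, with mean probe sets, with centred arrays or with the replicate block. It became 7 with array weights, 11 at the fold threshold and 0 to 15 leaving out 1 array. The count among the 5 tested genes, 0, became 1 at the fold threshold (Angptl4). The replicate block changed no call of the 5 tested genes and, beside those given, ended that of Ppara in NC+CCl4 against NC. Apart from the fit without shLFAR1+CCl4 replicate 3, no share of all genes is given for these settings. The partner counts there describe the setting and are no result about the partners. The causes were not tested.

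Differences near 0 changed sign. With mean probe sets these were Mgll in NC+CCl4 against NC (0.0015), Angptl4 in shLFAR1+CCl4 against shLFAR1 (0.025), Pnpla2 in shLFAR1 against NC (0.025) and Lipe in the interaction (0.11). After quantile normalization they were Pnpla2 between the CCl4 groups (0.015), in shLFAR1 against NC (0.010) and in the interaction (0.0053), and Lipe in the interaction (0.068), and with array weights Pnpla2 in the interaction (0.012). Leaving out 1 array gave -0.17 to 0.23 for Mgll in NC+CCl4 against NC, -0.39 to 0.072 for Angptl4 in shLFAR1+CCl4 against shLFAR1, and -0.075 to 0.12 for Lipe in the interaction. For Pnpla2 it gave -0.19 to 0.11 between the CCl4 groups, -0.12 to 0.064 in shLFAR1 against NC and -0.18 to 0.11 in the interaction. A low signal limits what can be read from 1421261_at of Lipg and from the second Angptl4 probe set.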

Other observations

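A further 2 partner genes are named after their values were seen. Cyp4a14, a fatty acid hydroxylase and PPAR target, had log2 levels of 9.81, 8.47 and 8.33 in NC+CCl4 and of 4.87, 4.44 and 9.98 in shLFAR1+CCl4, so replicate 3 lay above all NC+CCl4 arrays and the other two below them. Its difference between these groups was -2.44 ± 1.13 log2 units (limma, adjusted p = 0.352), and -4.22 without that replicate (adjusted p = 0.00105). Angptl8, which acts with other angiopoietin-like proteins on lipoprotein lipase and follows feeding, was at 9.58, 8.52 and 11.21 in NC+CCl4 and 8.09, 9.02 and 7.58 in shLFAR1+CCl4, groups that overlapped, with a difference of -1.54 ± 0.57 log2 units that did not pass (limma, adjusted p = 0.246), and of -1.21 without shLFAR1+CCl4 replicate 3 (adjusted p = 0.299).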
